A study of Mus musculus with 12 samples.

Results

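Blood coagulation, fibrinolysis and complement were followed here through 52 genes that encode clotting factors, fibrinogen chains, plasminogen and its activators, complement components, and their regulators and receptors. A spot was assigned to a member where its gene name, or the symbol of its Entrez number, was the member's symbol, a rule that uses no measured value. All 52 members were found among the 26228 gene symbols of the array, on 82 spots. Of these members, 31 had 1 spot and 21 had several, and a member with several was then represented by the spot with the highest mean level over the arrays compared.

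RNA from female B6C3F1/Nctr mice, a hybrid strain used in toxicology, was hybridised to 12 single-colour Agilent arrays. Untreated liver gave 3 arrays (mice numbered 1, 3 and 4 in the titles), liver of mice given acrylamide at 0.7 mM gave 3 (27, 29 and 30), untreated lung gave 3 (4, 5 and 6) and lung with acrylamide at 0.7 mM gave 3 (28, 29 and 30). Acrylamide is a small reactive amide that the liver oxidises to the epoxide glycidamide. No other agent or allele is named for any group, and the labels say nothing of age, route or duration. Nothing says that equal numbers mark the same mouse in both tissues. Nor is it said that replicates were extracted separately, so the p-values cover the spread of these samples only, and that spread may be technical.

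The tissue was taken from titles and source names, because a separate tissue entry reads liver for all arrays. The level of 12 hepatocyte markers, summed after scaling, was 3511 to 5663 on arrays titled liver and 83.5 to 117 on arrays titled lung, and Sftpc, the surfactant protein of alveolar type II cells, was at 8.23 to 8.79 on arrays titled lung and at 2.63 or below on those titled liver. Each level below is the log2 of the deposited intensity minus the 75th percentile of its array, so that 0 is that percentile. Levels are compared between arrays for the same spot and never between spots. That percentile ranged from 294.5 to 621.5 intensity units in liver and from 839.4 to 1376 in lung, and 3 arrays per group limit the precision. The array of acrylamide liver 30 stood apart, with the lowest 75th percentile and a background limit of 16.8 intensity units, so that 34287 of its spots exceeded background against 46450 or more on the others.

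Coagulation is a chain of serine proteases in which tissue factor starts, and the contact system can also start, the conversion of prothrombin to thrombin, which turns fibrinogen into fibrin. Plasmin dissolves fibrin, and complement is a related protease chain that tags and perforates microbes through C3, C5 and the membrane attack complex. Hepatocytes secrete most of these plasma proteins, while tissue factor, its inhibitor, the plasminogen activators, properdin and the anaphylatoxin receptors are made mainly by vessel wall, epithelial or blood cells.

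In untreated mice most members were far lower in lung than in liver, and a small group, led on the spots used by Cfd, Plat, F13a1 and F3, was higher. All 52 passed the background filter, and limma called 51 different between untreated lung and untreated liver at an adjusted p under 0.05, among a background of 74.4% of all 22441 genes tested. Lung was lower for 42 members, against a background of 42.4%, and higher for 9, against 32%. The median difference, lung minus liver, was -7.27 on the log2 scale over members and -0.28 over all genes. Of the members, 36 were at least 8-fold lower in lung, as were 8.7% of all genes, and 4 were at least 8-fold higher, as were 9.43%. The median over all genes moved from -0.28 to 0.01 with quantile scaling of the arrays, and the share of calls that were higher in lung moved from 43% to 51%. In bulk RNA, fewer cells of a type and less RNA per cell cannot be told apart.

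**Figure D1:**
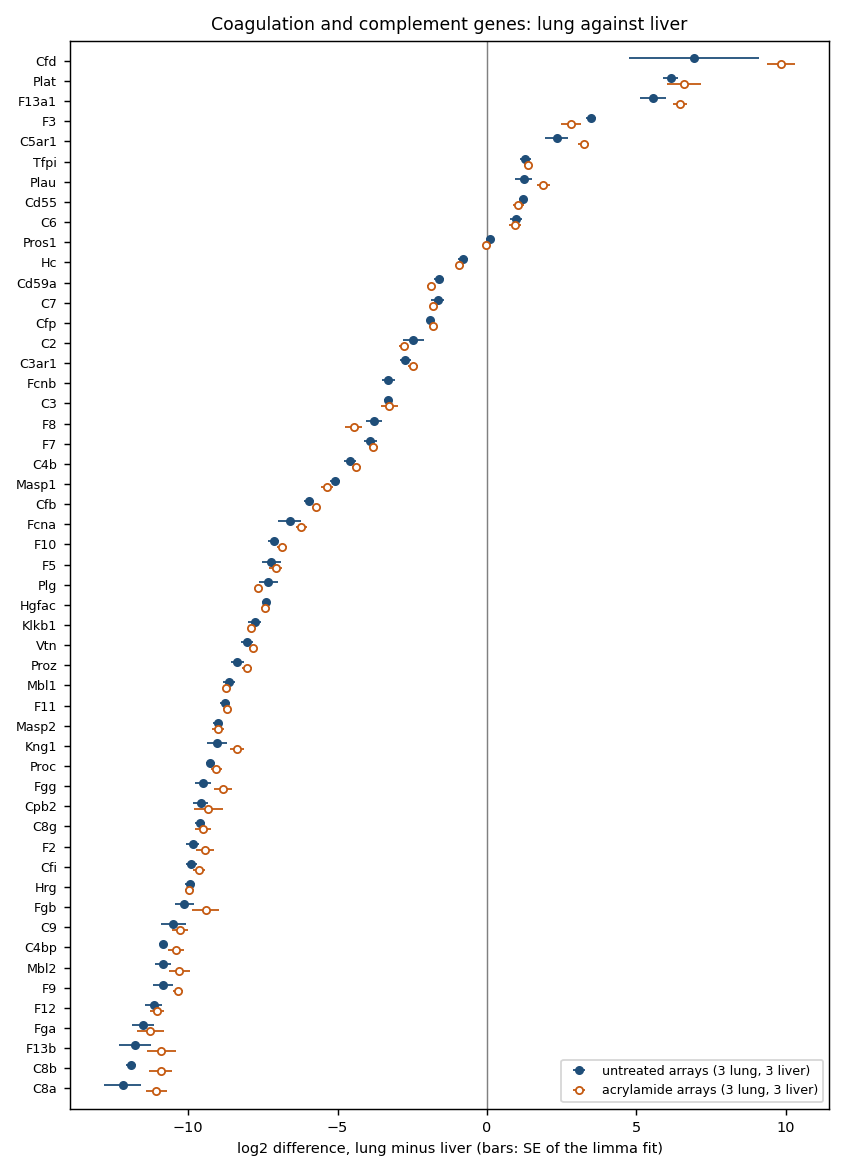
Log2 difference, lung minus liver, for each member on the vertical axis, sorted by the untreated difference. Filled points are untreated arrays, open points are acrylamide arrays, and bars are standard errors with 3 arrays per group; most members lie well below 0, and Cfd, Plat and F13a1 lie farthest above it, with the widest bar at untreated Cfd.

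The fibrinogen chains show the size of the tissue difference. Fga, Fgb and Fgg encode the alpha, beta and gamma chains of one protein and lie next to each other on chromosome 3. Fga was at 6.27, 6.13 and 6.10 on liver control arrays 1, 3 and 4 and at -5.35, -6.09 and -4.57 on lung control arrays 4, 5 and 6. The difference was -11.50 ± 0.37 (difference ± SE, n = 3 and 3, limma adjusted p = 1.31e-06). Fgb was at 9.42, 9.53 and 9.48 in liver and at -0.62, -1.35 and 0.01 in lung, a difference of -10.13 ± 0.33. Fgg was at 9.21, 9.41 and 9.37 in liver and at 0.02, -0.79 and 0.20 in lung, a difference of -9.52 ± 0.27. For each chain the tissues lay far apart, the lung arrays spread more widely than the liver arrays, and lung control 5 was the lowest. Fgb and Fgg were among the members with a median liver intensity over 100000 units, and the part of that brightness in their differences and spread was not tested.

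The 250 bases before the annotated starts of these genes are shown, because the chains were low in lung together, next to those of Pros1, the member whose level differed least between the tissues. The sequences are from RefSeq's GRCm38.p6 tables, which held promoters for 42 members. Capitals mark matches, on either strand, to the interleukin-6 response hexamer CTGGGA or the C/EBP motif TTGCNNAA. They are printed 5′ to 3′ along the gene's strand: Fga at chr3:83025903-83026152 (plus strand), Fgb at chr3:83049864-83050113 (minus), Fgg at chr3:83007474-83007723 (plus) and Pros1 at chr16:62854057-62854306 (plus).
Fga: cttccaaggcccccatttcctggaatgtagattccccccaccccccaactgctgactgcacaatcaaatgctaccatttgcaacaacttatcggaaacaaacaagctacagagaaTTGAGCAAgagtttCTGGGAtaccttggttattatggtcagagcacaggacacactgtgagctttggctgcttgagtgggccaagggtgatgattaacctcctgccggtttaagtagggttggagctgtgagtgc
Fgb: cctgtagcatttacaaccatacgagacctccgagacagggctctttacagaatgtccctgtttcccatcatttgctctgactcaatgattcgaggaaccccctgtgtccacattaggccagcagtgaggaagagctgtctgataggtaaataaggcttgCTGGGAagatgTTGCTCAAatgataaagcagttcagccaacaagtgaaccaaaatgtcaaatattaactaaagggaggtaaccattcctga
Fgg: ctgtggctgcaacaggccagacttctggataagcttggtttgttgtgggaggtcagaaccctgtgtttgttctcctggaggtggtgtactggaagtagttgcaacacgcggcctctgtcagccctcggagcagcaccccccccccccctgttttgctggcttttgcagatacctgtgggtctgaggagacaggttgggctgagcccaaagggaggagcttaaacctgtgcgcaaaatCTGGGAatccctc
Pros1: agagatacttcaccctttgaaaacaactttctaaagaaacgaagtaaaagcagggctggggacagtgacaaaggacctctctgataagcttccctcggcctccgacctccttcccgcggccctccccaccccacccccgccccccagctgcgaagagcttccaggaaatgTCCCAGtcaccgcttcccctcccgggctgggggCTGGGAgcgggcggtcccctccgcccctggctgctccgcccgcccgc

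The C/EBP motif was in 9 of the 45 member promoters, among them Fga and Fgb, and in 9.56% of 32851 promoters of this length. The hexamer CTGGGA was in 17 of 45, including all 3 fibrinogen genes and Pros1, against 27% of all promoters. An HNF1 motif, GTTAAT followed by any base and ATT, was in those of C4bp, F13b and Hc, or 3 of 45, against 0.371% of all. The HNF4 motif CAAAGTCCA was in 0 of 45 and 0.384% of all, and the TATA box TATAAA was in 6 of 45 and 12.4% of all. These matches describe letters in a window, on both strands and with no motif overlap removed, and no use of the sites was measured.

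Vitamin K-dependent factors carry carboxylated glutamates that bind calcium and membranes. Of these 7, 6 were lower in untreated lung. F9, whose product activates factor X, was at 5.17, 4.93 and 5.20 in liver controls and at -6.42, -5.75 and -5.09 in lung controls, a difference of -10.85 ± 0.33 (limma adjusted p = 1.13e-06). F2, prothrombin, differed by -9.85, Proc, the anticoagulant protease protein C, by -9.26, Proz, a cofactor in the inhibition of factor Xa, by -8.35 and F10 by -7.14. F7, the partner of tissue factor, had the smallest called difference of the class, at -3.90 ± 0.21. Pros1, protein S, the cofactor of protein C, was at 4.74, 4.64 and 4.68 in liver and 4.76, 4.63 and 4.91 in lung. The Pros1 groups overlapped, and its difference of 0.08 ± 0.13 was not called (limma adjusted p = 0.591), but it was called at 0.73 with quantile scaling (limma adjusted p = 0.00579).

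The other procoagulant genes held members on both sides. F13b, the carrier subunit of the fibrin-crosslinking factor XIII, was at 4.67, 4.59 and 4.67 in liver controls and at -8.24, -7.17 and -5.99 in lung controls, a difference of -11.78 ± 0.53 (limma adjusted p = 4.54e-06). F12, the contact protease factor XII, was at 5.81, 5.89 and 5.88 in liver and -5.75, -5.47 and -4.69 in lung, a difference of -11.16 ± 0.28. Both groups of arrays were separate for each gene, with the wider spread in lung. F13b on lung control 4 lay near that array's background limit of 3.24 intensity units, against a 75th percentile of 1098. Kng1, kininogen, differed by -9.04, F11 by -8.78, Klkb1, plasma prekallikrein, by -7.78, F5, the cofactor of factor Xa, by -7.22 and F8, the cofactor of factor IXa that endothelial cells are known to make, by -3.80. The 3 Kng1 spots, all above background on every liver and lung array, differed by -9.04 to -11.91.

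F13a1, the catalytic subunit of factor XIII found in platelets and macrophages, ran opposite to its carrier. It was at -4.41, -5.94 and -5.03 on liver controls and 0.34, 0.995 and -0.02 on lung controls, and the difference was 5.56 ± 0.44 (limma adjusted p = 4.97e-05). Every lung array was above every liver array on this spot. The other F13a1 spots differed by 2.64 and -0.58 between the tissues, so the gene's direction was not the same on all of its spots. The summed level of platelet markers was 6.74 to 24.0 on lung control arrays and 0.72 to 0.79 on liver control arrays, and its part in the F13a1 difference was not tested.

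F3, tissue factor, was at -0.89, -1.25 and -1.22 in liver controls and 2.49, 2.15 and 2.399 in lung controls. The groups did not overlap, and the difference was 3.47 ± 0.17 (limma adjusted p = 6.07e-06). Tfpi, the inhibitor of the tissue factor pathway, was at -0.16, 0.36 and -0.02 in liver and 1.18, 1.35 and 1.48 in lung, a difference of 1.28 ± 0.18 (limma adjusted p = 0.000781). A starter of coagulation and its inhibitor were thus both higher in lung. Another Tfpi spot differed by -0.34 and the third by 1.72.

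Endothelial markers, from the cells known to make Tfpi and Plat, had a summed level of 251 to 306 on lung controls and 30.2 to 36.6 on liver controls, and their part in these differences was not tested.

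Among the fibrinolysis genes, the plasminogen activators were higher in lung and their substrate and plasma modulators lower. Plat, tissue plasminogen activator, was at -1.23, -0.95 and -0.49 on lung controls and -7.06, -6.71 and -7.34 on liver controls, where 2 of 3 arrays exceeded background. The difference on this spot was 6.15 ± 0.25 (limma adjusted p = 3.18e-06). Its other spot, also above background on all lung arrays, differed by only 1.02, so the size of the Plat difference depends on the spot. Plau, urokinase, differed by 1.22 ± 0.28 on the spot used and by -1.46 on its other spot, which exceeded background on 2 of all 12 arrays. Plg, plasminogen, differed by -7.32 ± 0.33. Cpb2, the carboxypeptidase that protects fibrin from plasmin, differed by -9.59, Hrg, a plasma glycoprotein that binds plasminogen and heparin, by -9.94, Vtn, vitronectin, by -8.04 and Hgfac, a protease that activates hepatocyte growth factor, by -7.40.

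Complement varied with the step of the cascade. The 6 genes of the lectin pathway, whose products recognise sugars and activate proteases on them, were all lower in lung. Mbl2, a mannose-binding lectin, differed by -10.85 ± 0.26, Masp2, its protease, by -9.02, Mbl1 by -8.63, Fcna, ficolin A, by -6.61 and Masp1 by -5.08. The 5 Masp1 spots all had the same direction, from -3.03 to -10.68. Fcnb, a ficolin of myeloid cells, exceeded background on 0 of 3 lung control arrays and was at least 7.90-fold lower there (limma adjusted p = 1.65e-05). That bound sets the mean of the liver arrays against the lowest signal above background on each lung array.

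The central components were less unequal than the lectin pathway. Cfb, factor B of the alternative pathway, differed by -5.96 ± 0.15, C4b by -4.58, C3, on which all complement routes meet, by -3.32 ± 0.14, C2 by -2.47 and Cfp, properdin, by -1.89. Hc, the mouse C5 gene, differed by -0.82 ± 0.17 (limma adjusted p = 0.00415), a call that was lost at -0.20 with quantile scaling (limma adjusted p = 0.367). On the spot used, C3 was at 359640 to 398340 intensity units on the 6 liver arrays before scaling. That is 87.3 to 92.0% of the highest spot of the same array, and its part in the C3 tissue difference was not tested. The other C3 spot, above background on every liver and lung array, differed by -4.29.

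Cfd, complement factor D or adipsin, which cleaves factor B and is made abundantly by fat cells, had the most uneven values of all members. It was at 0.80, -7.88 and -2.62 on liver controls 1, 3 and 4, the second not above background, and at 4.74, 4.79 and 1.56 on lung controls 4, 5 and 6. The groups did not overlap, but liver control 1 and lung control 6 lay close to each other. The difference was 6.93 ± 2.19 (limma adjusted p = 0.026). It was no longer called without liver control 4 (limma adjusted p = 0.0501), lung control 4 (0.0761) or lung control 5 (0.0742).

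Several fat cell genes stood out on the same arrays as Cfd. On liver control 1, where Cfd was highest in liver, Adipoq (adiponectin) was at -2.59 and Retn (resistin) at -2.68, whereas Adipoq was at -5.28 or below and Retn at -4.43 or below on the other 5 liver arrays. On lung control 6 and lung acrylamide 30, where Cfd was lowest in lung at 1.56 and 2.96, Adipoq was at -2.57 and -1.27, against 0.01 to 1.04 on the other lung arrays. Of the 7 fat markers, 4 were at their highest liver level on control 1 and 4 at their lowest lung level on control 6. The others did not follow Cfd: Lep (leptin) was at 0.48 to 1.19 in liver and at -1.84 to -1.57 in lung, where it was highest on control 6, and Cidea was highest in liver on acrylamide 30, at -2.69. The summed level of the 7 was 5.22 to 11.9 on lung controls and 1.68 to 2.85 on liver controls, but Lep made up 72.5 to 86.5% of it on the liver arrays. The part of these genes in the Cfd difference was not tested.

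**Figure D2:**
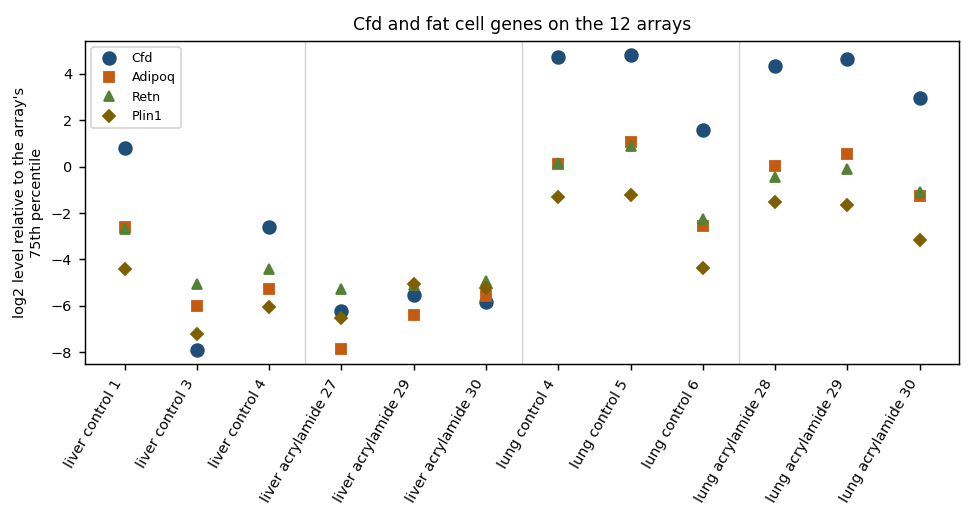
Level of Cfd and of the fat cell genes Adipoq, Retn and Plin1 on each of the 12 arrays, as log2 intensity relative to the array's 75th percentile. Liver control 1 is high among the liver arrays for all 4 genes, and lung control 6 and lung acrylamide 30 are low among the lung arrays.

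The membrane attack genes split. C8a and C8b, the alpha and beta chains of the component that inserts the complex into membranes, had the most negative differences of all members on the spots used. C8a was at 5.28, 4.81 and 5.25 in liver controls and -7.21, -8.31 and -5.74 in lung controls, a difference of -12.20 ± 0.61 (limma adjusted p = 7.26e-06). On lung control 5 its value lay near that array's background limit of 2.35 intensity units, against a 75th percentile of 1047. The other C8a spot differed by -9.18. C8b was at 5.25, 5.03 and 5.22 in liver and -6.88, -6.90 and -6.46 in lung, a difference of -11.92 ± 0.17. C9, the pore-forming unit, differed by -10.50 and C8g by -9.62, whereas C7 differed by -1.65 ± 0.22 and C6 was higher in lung by 0.98 ± 0.20 (limma adjusted p = 0.00453). The early and late pieces of the same complex were therefore unequally distributed in these tissues.

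Regulators and receptors were as mixed. The soluble regulators C4bp and Cfi, which together inactivate C4b and C3b, differed by -10.84 ± 0.13 and -9.89 ± 0.18. The membrane regulator Cd59a, which blocks C9, differed by -1.60, and Cd55, which dissociates C3 convertases, was higher in lung by 1.196 ± 0.139. C5ar1, the C5a receptor of neutrophils and macrophages, was at -2.78, -2.37 and -1.31 in liver controls and 0.07, -0.01 and 0.49 in lung controls, a difference of 2.34 ± 0.39 (limma adjusted p = 0.00159). C3ar1, the C3a receptor, differed by -2.74 ± 0.18, so the receptors differed in opposite directions.

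Acrylamide arrays gave nearly the same map of the 2 tissues. Of 51 members tested between acrylamide lung and acrylamide liver, limma called 50, against a background of 72.8%, of which 41 were lower in lung, against 41.5%, and 9 higher, against 31.3%. Fcnb did not pass the filter there, and Pros1 was not called, at -0.02 (limma adjusted p = 0.855), although it was with quantile scaling (limma adjusted p = 0.00268). The median was -7.44 over members and -0.25 over all genes. All 50 calls had the direction of the untreated comparison. C4bp was at 7.36, 7.30 and 7.22 on acrylamide liver arrays 27, 29 and 30 and -3.05, -2.63 and -3.67 on acrylamide lung arrays 28, 29 and 30, a difference of -10.41 ± 0.27. Plau was at -4.31, -4.81 and -4.84 in acrylamide liver and -2.56, -2.67 and -3.07 in acrylamide lung, a difference of 1.89 ± 0.22. Neither gene's groups overlapped. The typical gap between the untreated and the acrylamide difference was 0.26 log2 units and the largest was 2.90, for Cfd. On the spot used, Plat exceeded background on 0 of 3 acrylamide liver arrays and was at least 60.3-fold higher in acrylamide lung (limma adjusted p = 0.00017).

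The spread among replicates also had a tissue pattern. The median SD of a member among lung control arrays was 0.32 log2 units, against 0.21 over all genes, and 17 of 52 members exceeded 0.5. Among liver control arrays it was 0.13, against 0.21 over all genes, with 3 members above 0.5. In acrylamide arrays the medians were 0.19 in lung and 0.21 in liver, against 0.13 and 0.28 over all genes. Members were thus more variable than the typical gene between lung arrays and less variable between liver arrays, which bears on what the treatment comparisons could show.

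The brightest liver members had a further limit. Of 9 members with a median liver intensity over 100000 units, 5 varied less between liver arrays before scaling than after it, as did 4 of the 43 dimmer members. C3 had an SD of 0.05 on the log2 scale before scaling and 0.35 after it, and Kng1 had 0.14 and 0.31. Scaled C3 was highest, at 10.25, on acrylamide liver 30, the array with the lowest 75th percentile. Scaled differences of C3 and Kng1 between liver arrays thus follow the arrays' 75th percentiles, and whether the signal was limited at this intensity was not tested. On the lung arrays 0 members had a median above that line.

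**Figure D3:**
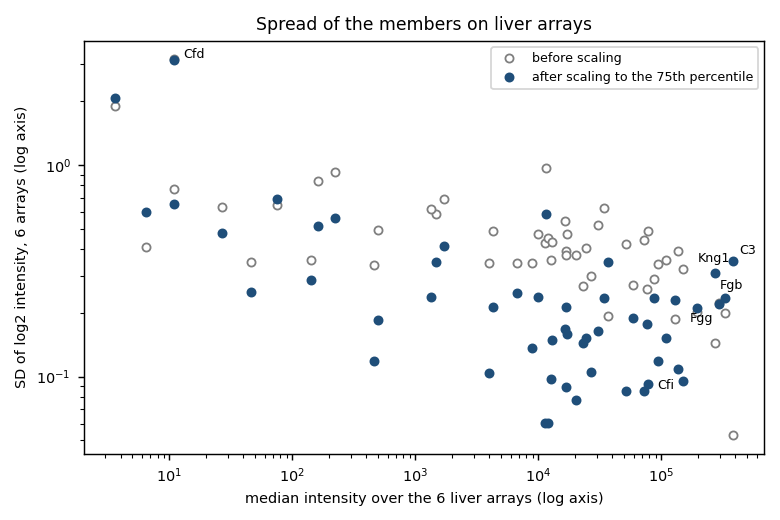
Median intensity of each member over the 6 liver arrays on a log axis, against the SD of its log2 intensity before and after scaling, also on a log axis. C3 and Kng1, at the bright end, vary less before scaling than after it, and Cfi, at 0.49 before and 0.09 after, shows the opposite order.

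In liver, no member passed the test for acrylamide against control. The plasminogen gene Plg, the ficolin gene Fcna and the factor VIII gene F8 had the lowest unadjusted p-values, all with higher values after acrylamide. Plat did not exceed background on enough arrays, so 51 members were tested, and limma called 0 of them, as it called 0% of all 21169 genes. At an unadjusted p under 0.05 stood 3 members, beside 6.04% of all genes, and all 3 were higher, beside 2.55%. Acrylamide values were higher for 20 members and lower for 31, with a median difference of -0.04, against -0.02 and 46.9% higher over all genes. These counts turned to 29 higher and 22 lower with quantile scaling and within title row 1, and 11 members had the opposite sign under another scaling. Across all alternatives the median over all genes also moved, between -0.06 and 0.05. The groups of arrays did not overlap for 6 members, or 11.8%, against 12.2% of all genes.

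F8 was at -1.47, -1.70 and -1.53 on control liver arrays 1, 3 and 4 and at -0.49, -0.58 and -1.35 on acrylamide arrays 27, 29 and 30. All acrylamide values were higher than all control values, with array 30 close to the controls. The difference was 0.76 ± 0.26 (limma adjusted p = 0.784). It was 1.03 without acrylamide 30 and 0.60 without acrylamide 27. Within title rows 1 and 2, named here after a digit in the title codes whose meaning is not given, it was 0.66 and 0.94. Row 2 of the liver arrays holds only acrylamide 29 and control 4, so each liver value given for it is a difference between 2 single arrays.

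Plg was at 1.63, 1.18 and 1.79 in controls and 2.08, 2.10 and 1.98 with acrylamide, so the groups did not overlap. The difference was 0.52 ± 0.19 (limma adjusted p = 0.784). The other Plg spot, also above background on all liver arrays, differed by -1.14, and the mean of both spots gave -0.31. The direction for Plg in liver thus depends on which spot is read. The same held for 14 of the 21 members with several spots, Plg included, counting also spots not above background on every array. Within title rows 1 and 2 the spot used gave 0.62 and 0.31.

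Fcna was at 1.90, 1.27 and 1.91 in controls and 2.44, 2.34 and 2.03 with acrylamide, again without overlap. Its difference was 0.57 ± 0.23 (limma adjusted p = 0.784). The 12 markers of Kupffer cells and other macrophages, which are known to express Fcna, had a summed level of 86.9 to 96.0 with acrylamide and 59.5 to 80.8 in controls, with higher means for 12 of 12, and their part in the Fcna value was not tested. Mbl1 was higher by 0.31 without overlap, whereas the separated members with lower acrylamide values were C4b, at -0.33, and Proc, at -0.18.

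F3 was at -0.89, -1.25 and -1.22 in controls and -0.00, -0.19 and -1.22 with acrylamide, a difference of 0.65 ± 0.34 (limma adjusted p = 0.784). Arrays 27 and 29 were above the controls and array 30 was among them. Of 8 alveolar and 4 club cell markers, 6 and 4 were at their highest liver level on array 27: Sftpc was at 2.63 on array 27 and -0.65 on array 29, against -5.60 or below on the other liver arrays, and Scgb1a1, the club cell secretoglobin, was at 2.35 and 1.29, against -2.80 or below. Their part in the F3 value was not tested.

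Cfd had the most negative liver difference. Its control values of 0.80, -7.88 and -2.62 spread more widely than those of any other member, and the acrylamide values of -6.20, -5.52 and -5.83 lay inside their range. The difference was -2.62 ± 2.05 (limma adjusted p = 0.821), and it was -0.60 without control 1 and -4.95 without control 3. This spot exceeded background on 4 of 6 liver arrays.

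C5ar1 was at -2.78, -2.37 and -1.31 in controls and -3.30, -2.97 and -2.72 with acrylamide, a difference of -0.84 ± 0.40 (limma adjusted p = 0.784). The groups overlapped by control 1 alone. Within title row 1 the difference was -0.44 and within row 2 it was -1.65. Of 9 neutrophil markers on the array, 5 had lower mean levels with acrylamide and 4 higher. S100a9, a neutrophil calgranulin, was at 1.64, 0.12 and 0.92 in controls and -0.14, -1.19 and -1.43 with acrylamide, while Retnlg was at -4.82, -7.56 and -5.51 in controls and -4.79, -6.82 and -3.45 with acrylamide. Their summed level was 64.6 to 68.9 with acrylamide and 66.5 to 80.4 in controls, of which Csf3r made up 89.5 to 94.7%. Their part in the C5ar1 value was not tested.

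Fcnb was at -5.49, -6.05 and -5.36 in liver controls and -6.68, -6.73 and -5.63 with acrylamide, a difference of -0.71 ± 0.36. F13a1 was at -4.41, -5.94 and -5.03 in controls and -5.37, -6.16 and -5.80 with acrylamide, a difference of -0.65 ± 0.42. Plau was at -4.54, -3.80 and -3.77 in controls and -4.31, -4.81 and -4.84 with acrylamide, a difference of -0.62 ± 0.27. In each of the 3 genes the groups overlapped, 5 of 6 arrays exceeded background and the limma adjusted p was 0.784 or above. In all, 7 members differed by at least 1.5-fold, or 13.7%, beside 12.2% of all genes. By role, acrylamide values were higher for 2 of 7 vitamin K-dependent genes, 1 of 3 fibrinogen genes, 4 of 9 other procoagulant genes and 1 of 6 membrane attack genes, and for 3 of 4 complement regulators. The group medians in liver lay between -0.46 for the 2 receptors and 0.03 for the regulators, with -0.18 for fibrinogen. Scaled Fgb and Fgg were, like C3, highest in liver on acrylamide 30, at 9.67 and 9.46. Fga differed by 0.19 on the spot used and by -0.42 on its other spot. The number of members at an unadjusted p under 0.05 rested on single arrays: it was 5 higher and 7 lower without acrylamide 30, where 16.1% of all genes stood at that threshold. It was 0 without acrylamide 29 (4.16% of all genes) and 0 higher and 1 lower without acrylamide 27 (5.25%). Without control 1 it was 2 in each direction (5.44%), without control 3 it was 0 higher and 2 lower (4.74%), and without control 4 it was 2 higher and 0 lower (4.79%).

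**Figure D4:**
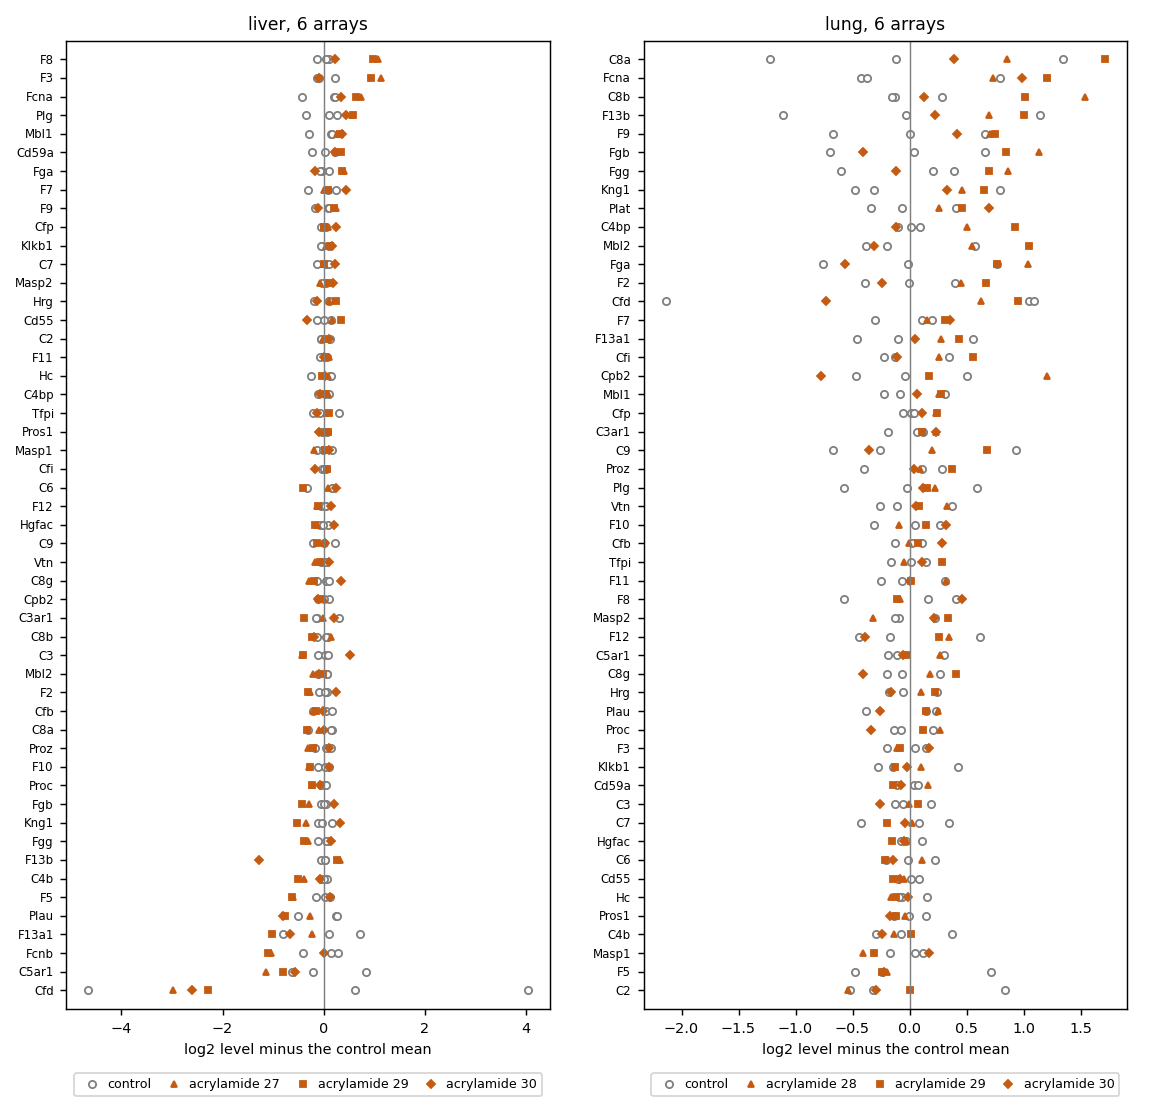
Level of each member minus the mean of its control arrays, in log2 units, for the 51 members tested in liver (left) and in lung (right), with different horizontal scales. Open grey points are control arrays and orange symbols are the 3 acrylamide arrays; in most rows the symbols lie among the control points, and the liver controls of Cfd span the widest range.

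In lung, again no member passed the test for acrylamide against control, and Fcna had the lowest unadjusted p. Fcnb did not pass the filter, so 51 members were tested, and limma called 0 of them, as it called 0% of all 22252 genes. At an unadjusted p under 0.05 stood 1 member, beside 4.95% of all genes. Acrylamide values were higher for 37 members, or 72.5%, and lower for 14, while 48.3% of all genes were higher. The median was 0.12 over members and -0.01 over all genes. Higher values were found for 36 or 37 members under the other scalings and for 32 to 39 when single arrays were left out. Within title rows 1 and 2 the counts were 40 and 34. Across all alternatives the median over all genes lay between -0.05 and 0.01. Of the 21 members with several spots, 8 had spots of both signs in lung, counting also spots not above background on every array. Only Cfp had groups that did not overlap, or 1.96% of members beside 10.9% of all genes.

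Fcna was at -5.34, -4.12 and -5.29 on lung controls 4, 5 and 6 and at -4.19, -3.71 and -3.93 on acrylamide arrays 28, 29 and 30. Only control 5 reached into the acrylamide range. The difference was 0.97 ± 0.35 (limma adjusted p = 0.998). It was 0.07 within title row 1, which holds control 5 as its only control, and 1.60 within row 2, which holds acrylamide 29 as its only acrylamide array. Kupffer cell and macrophage markers had a summed level of 59.8 to 72.4 with acrylamide and 42.6 to 64.9 in controls, with higher means for 10 of 12, and their part was not tested.

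C8a was at -7.21, -8.31 and -5.74 in controls and -6.23, -5.37 and -6.69 with acrylamide, a difference of 0.99 ± 0.69. C8b was at -6.88, -6.90 and -6.46 in controls and -5.21, -5.73 and -6.62 with acrylamide, a difference of 0.90 ± 0.37 (limma adjusted p = 0.998). For C8a only acrylamide 29 lay above all controls, and for C8b acrylamide 28 and 29 did, with acrylamide 30 among the controls for both. The other spots of C8a and C8b differed by 0.10 and 0.14 and did not exceed background on every lung array. F13b was at -8.24, -7.17 and -5.99 in controls and -6.43, -6.13 and -6.91 with acrylamide, a difference of 0.64 ± 0.57. F9 was at -6.42, -5.75 and -5.09 in controls and -5.04, -5.01 and -5.33 with acrylamide, a difference of 0.62 ± 0.34. Both overlapped, F13b widely and F9 through control 6. The lowest control values of C8a and F13b lay near the background limits of their arrays. With Fcna these genes made 5 members that differed by at least 1.5-fold, or 9.8%, beside 5.44% of all genes.

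Fibrinogen values were also higher on acrylamide 28 and 29 than on acrylamide 30. Fgb was at -0.62, -1.35 and 0.01 in controls and 0.49, 0.19 and -1.06 with acrylamide, a difference of 0.53 ± 0.51, and Fgg was at 0.02, -0.79 and 0.20 in controls and 0.68, 0.51 and -0.31 with acrylamide, a difference of 0.48 ± 0.36. Kng1 was at -0.23, -0.06 and 1.04 in controls and 0.71, 0.90 and 0.58 with acrylamide, a difference of 0.48 ± 0.35. None of these was called, and in each the control and acrylamide ranges overlapped. Cfp, properdin, had a small separated difference of 0.20 from 1.14, 1.22 and 1.24 in controls to 1.43, 1.44 and 1.31 with acrylamide (limma adjusted p = 0.998).

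Members with far higher levels in liver made up most of the 51 members tested in lung, and also most of those with higher values in acrylamide lung. Of the 35 members at least 8-fold higher in untreated liver, a choice that used the same lung control arrays, 29 had higher values with acrylamide and the median was 0.17, whereas the other 16 divided 8 and 8 with a median of 0.02. By role, values were higher for 6 of 7 vitamin K-dependent genes, 3 of 3 fibrinogen genes, 6 of 7 fibrinolysis genes and 4 of 5 lectin pathway genes, and for 3 of 7 of the C2 to C5 and alternative pathway genes.

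Hepatocyte markers were high on some of the same lung arrays. Of 12 markers, 11 had higher values with acrylamide, with a median of 0.29. Acrylamide arrays 28, 29 and 30 gave the 35 members a median deviation of 0.26, 0.31 and -0.03 from their control means, and control arrays 4, 5 and 6 gave -0.12, -0.15 and 0.28. The hepatocyte markers deviated by 0.56, 0.56 and -0.19 on these acrylamide arrays, and by -0.15, -0.38 and 0.46 on these controls. Albumin, Alb, was at 4.22, 4.11 and 3.05 with acrylamide and 3.11, 3.10 and 4.21 in controls. Both lists were mostly high on acrylamide 28, acrylamide 29 and control 6 and mostly low on controls 4 and 5. On acrylamide 30 the lists parted, with 17 of 35 members but 1 of 12 hepatocyte markers above the control mean. The summed hepatocyte level was 83.5 to 117 with acrylamide and 93.7 to 107 in controls, of which Trf made up 64.1 to 81.0%, and the part of these genes in the members' lung values was not tested.

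**Figure D5:**
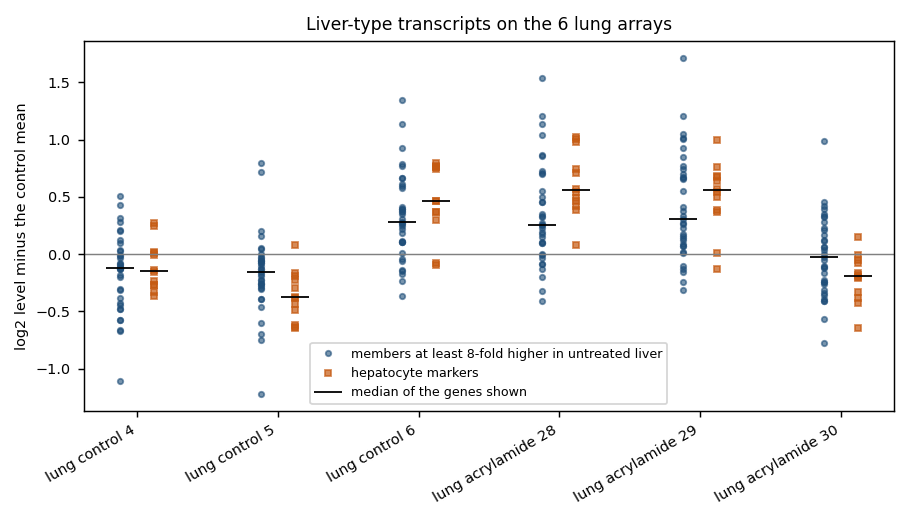
Deviation of each gene from its lung control mean, in log2 units, on the 6 lung arrays, for the 35 members at least 8-fold higher in untreated liver and for 12 hepatocyte markers, with lines at the medians. The medians of both lists lie above 0 on acrylamide 28, acrylamide 29 and control 6 and below 0 on controls 4 and 5, while on acrylamide 30 the members are split around 0 and the hepatocyte markers lie mostly below it.

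Leaving out control 6 raised the median of the 35 members from 0.17 to 0.35, and leaving out control 5 lowered it to 0.09. Without acrylamide 30 it was 0.27. The count of the 35 with higher values lay between 23, without control 4, and 30, without control 6. The number of all members at an unadjusted p under 0.05 was 7 without control 6, beside 5.82% of all genes, 2 without control 5 (6.78%) or acrylamide 30 (3.47%), and 0 without control 4 (7.03%) or acrylamide 29 (3.43%). In liver, 12 of the 35 members and 3 of the 12 hepatocyte markers had higher values with acrylamide, with medians of -0.05 and -0.13.

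The difference between the lung and liver responses was tested on its own over all 12 arrays. Of 52 members limma called 0, as it called 0% of all 23300 genes, and 1 member stood at an unadjusted p under 0.05, beside 4.44% of all genes. That member was C8b, at 0.99 ± 0.43 (limma adjusted p = 0.994), from -0.09 in liver and 0.90 in lung. With the mean of the spots of a gene, 0 members stood at that threshold, beside 4.18% of all genes. The lung minus liver response was positive for 37 members and negative for 15, with a median of 0.21, against 49.8% positive and a median of -0.00 over all genes. The member count at an unadjusted p under 0.05 was 11 higher and 3 lower when arrays were weighted by their quality, where 17.3% of all genes stood at that threshold. It was 5 without acrylamide lung 30 (3.57% of all genes), 4 without control lung 6 (4.07%), 3 without control liver 3 (4.13%) and 2 in each direction without acrylamide liver 30 (11.1%). It was 0 when acrylamide liver 29, control liver 4, acrylamide lung 28 or acrylamide lung 29 was left out, where 3.21 to 4.68% of all genes stood there. Over all genes, 136 were called without acrylamide liver 30 and 139 with array weights, none of them a member. This test uses the same 12 arrays as the single-tissue comparisons of acrylamide with control, so it adds no separate samples.

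Besides C8b, the response difference was highest for Cfd, at 2.90 ± 2.52, C8a, at 1.13, C5ar1, at 0.90 ± 0.47, and F13a1, at 0.90 ± 0.55, and lowest for F8, at -0.67, and F3, at -0.66. All had a limma adjusted p of 0.994 or above. The F13a1 value was -0.11 with the mean of its spots. Neither the initiator F3 nor the receptor C5ar1 therefore had a response shown to differ between the tissues.

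A wider list of 50 coagulation and complement genes outside the members, holding serpins, C1q chains and cell-surface receptors, was read in the same way. In untreated arrays limma called 47 of 49 tested, against 74.4% of all genes, with 32 lower in lung, against 42.4%, and 15 higher, against 32%. The median was -2.13, against -0.28 over all genes. Kng2, a kininogen, differed by -11.20, Habp2, a hyaluronan-binding protease, by -10.82 and Serpinc1, antithrombin, by -10.45. Thbd, the endothelial thrombomodulin, differed by 6.55, Thbs1, thrombospondin, by 6.62, Plaur, the urokinase receptor, by 6.39 and Itgax, an integrin of complement receptor 4, by 6.04. Plaur was thus higher in lung, as was Plat, whereas the 2 spots of Plau, the urokinase gene, had opposite signs.

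After acrylamide, limma called 0 of 48 of these genes in either tissue. In liver 21 were higher and 27 lower, where 46.9% of all genes were higher, with a median of -0.07 and 0 at an unadjusted p under 0.05, beside 6.04% of all genes. The highest values there were 0.80 for Vsig4, a complement receptor of Kupffer cells, 0.52 for Tfpi2, 0.48 for Itgb2 and 0.46 for C1qa, and the lowest were -0.66 for Serpina5, the protein C inhibitor, -0.56 for Thbs1, -0.55 for Itgam and -0.49 for C5ar2. In lung 26 were higher and 22 lower, where 48.3% of all genes were higher, with a median of 0.02. At an unadjusted p under 0.05 stood 5 of the 48, beside 4.95% of all genes. Of those 5, Plaur was higher by 0.54 (limma adjusted p = 0.959) and C1qa, a chain of the classical pathway's recognition protein, by 0.49, with C1qc also higher. Vwf, von Willebrand factor, was at -0.32 and C5ar2, the other C5a receptor, at -0.27. The remaining extremes in lung were 0.78 for Kng2 and 0.45 for C1qb, and -0.45 for Cr2 and -0.31 for F2rl3, a thrombin receptor. None of these passed the adjusted threshold.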

How the data were processed

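RNA from 12 samples was measured on single-colour Agilent arrays of 62976 spots. The authors deposited a linear Cy3 intensity per spot, and the submitters' processing notes name Agilent Feature Extraction 10.7. The labels do not say whether background was subtracted, and 0 values lie at or below 0. The deposited series matrix holds the same intensity times a factor per array. The members and gene lists were chosen with earlier results of these data known.

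Control spots (1319) were left out. Each array's log2 intensity was centred on its 75th percentile. A spot exceeded background above the 95th percentile of 308 negative controls, and was tested when it did so on at least 3 arrays of the fit. Spots were named by Entrez number (38054), accession (715) or the array's own gene name (2242) through RefSeq GRCm38.p6, and 20646 stayed unnamed. A gene was its spot of highest mean. Differences were tested with limma 3.58.1 in R 4.3.3 (lmFit and eBayes, tested on simulated data), with Benjamini-Hochberg adjustment over all genes and a threshold of 0.05. Each comparison was fitted on its own groups, and the difference of responses on all 12 arrays. Members were given on every array where they had the 6 largest untreated tissue differences each way, the 8 largest treatment differences, or an unadjusted p under 0.05, the other members by role; the pathway genes outside the members were named where they had the 4 highest or lowest differences or such a p, and 1 of them is not reported here. Alternatives were other scalings, filters, spot rules, array weights, blocks and leaving out each array. Values within title rows were added after seeing the data.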

Additional observations from a re-analysis of the deposited data

Results flagged for a closer look

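F13a1, the catalytic subunit of factor XIII, had acrylamide values below the control mean on every acrylamide array in liver and above it on every acrylamide array in lung. Its difference was -0.65 in liver and 0.25 in lung, and the lung difference minus the liver difference was 0.90 ± 0.55 (limma adjusted p = 0.994), which did not pass the test. The mean over its spots gave -0.11. Platelet markers had a summed level of 0.61 to 0.67 on acrylamide liver and 0.72 to 0.79 on control liver, and 11.7 to 13.1 on acrylamide lung and 6.74 to 24.0 on control lung, and their part in the result was not tested.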

How the results depend on the processing

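Between the tissues, limma called 48 to 51 of the members in untreated and 46 to 51 in acrylamide arrays under every alternative run. The lowest counts came where a spot had to exceed background on every array, which left 49 and 47 members tested. Over all genes, 14559 to 20087 were called in untreated and 12453 to 18555 in acrylamide arrays. At an unadjusted p under 0.05 stood 72 to 78.5% and 70.7 to 83% of all genes. For acrylamide, the count of all genes called in liver was 2 with 1 fit of all 12 arrays, in place of 0, and 0 to 1 when single arrays were left out, with 1 without acrylamide 27. For the difference between the responses it was 139 with array weights, in place of 0, and 0 to 136 when single arrays were left out, with 136 without acrylamide liver 30, 8 without acrylamide liver 27 and 1 without control liver 1 or acrylamide lung 30, and no member was called in any of these. The mean of the spots of a gene gave -0.31 for Plg in liver and -0.11 for F13a1 in the difference of responses, both with the opposite sign. Numbers 4, 29 and 30 occur in both tissues, and the labels state no pairing, so the numbers were not taken as pairs. Same-numbered arrays had deviations that correlated at 0.01, -0.02 and -0.16, within the -0.16 to 0.17 of all 36 liver and lung pairs. These values cannot decide the question, because tissues of the same mouse need not deviate together. With the numbers as a replicate block, limma called 15696 genes and 50 members between acrylamide lung and liver, and 0 genes for the difference between the responses. The title row as a block gave 0 calls in either tissue. Having 3 arrays per group, and the background limit of acrylamide liver 30, set how small a difference of the dim members could be seen.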
